A study of Mus musculus with 12 samples.

Results

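The 36 autophagy genes described here were taken by gene symbol from a table of 55487 genes counted in 12 whole mouse lungs, and all 36 passed the filter on low counts. They were not chosen by their response. The list runs from the kinase complex that starts autophagy to the lysosome that ends it, and it holds Becn1 and Atg5, which are reported targets of miR-30a. A gene was called changed at an adjusted p under 0.05 in edgeR's quasi-likelihood test and a fold change over 1.5. With the 4 groups alone in the model none of the 36 was called in any comparison, beside 0% to 1.22% of all genes. Nor was any called with DESeq2's Wald test. With an added factor for unwanted variation, Rb1cc1 alone was called, in the difference of the hyperoxia effect between the sexes, beside 4.59% of all genes. With that factor 18 of the 36 had an adjusted p under 0.05 in females by edgeR, none over a 1.5-fold change. This stands beside 16.7% of all genes, of any level and in both directions. After hyperoxia all 36 had lower values in the female lungs, by a median of -0.25 on the log2 scale, whereas 28 had higher values in the male lungs, by a median of 0.08 over the 36, which was -0.0032 without hyperoxia-exposed male 1. Of all genes at least as highly expressed as the lowest of the 36, 63.5% were lower in females and 57.9% higher in males. With a measure of background reads in the model, the share of counts on receptor genes, 19 were lower and 17 higher in females (median -0.012), and 21 were higher in males (median 0.021).

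All mice were miR-30a-/- on a C57BL/6J background, so that the controls carried the deletion too, and the locus had been deleted with CRISPR. Hyperoxia-exposed pups breathed 95% oxygen from postnatal day (PND) 1 to PND 5, the controls stayed in room air, and all lungs were taken on PND 21. There were 3 lungs in each of 4 groups: room air females (animals 2, 5 and 6), hyperoxia-exposed females (2, 4 and 5), room air males (1, 4 and 5) and hyperoxia-exposed males (1, 2 and 3). Both exposures drew on the same mixed litters, and wild-type lungs were not analysed here. The lungs were sampled after the exposure had ended, so that the values do not describe the exposure itself.

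Autophagy encloses part of the cytoplasm in a double membrane, the autophagosome, and delivers it to the lysosome for breakdown. The ULK1 kinase complex starts the process, the Vps34 lipid kinase complexes mark the new membrane with PI3P, and ATG9 and ATG2 proteins supply lipid. A chain of ubiquitin-like reactions then couples the Atg8 proteins, LC3 and GABARAP, to the membrane, where cargo receptors bind them. Many of these steps are set by phosphorylation, lipidation and protein turnover, so a transcript level is not a measure of autophagic flux.

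The miR-30 family is shown first because it is what links this pathway to the deleted gene. Its members share their seed, bases 2 to 8 of the mature strand, by which a microRNA pairs with its target. The mature sequences of 3 members follow from RefSeq (GRCm38.p6), with the seed in capitals.
mmu-miR-30a-5p: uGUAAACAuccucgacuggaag
mmu-miR-30c-5p: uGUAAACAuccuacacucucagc
mmu-miR-30e-5p: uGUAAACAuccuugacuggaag
The seeds of all 3 are identical. Mir30a and its neighbour Mir30c-2 had 0 counts in all 12 lungs, and the deletion could not be checked in these libraries, whose 3-count floor lay between 0.179 and 0.342 CPM (counts scaled to library size).

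The complement of that seed, TGTTTAC, was searched on the transcript strand in the longest 3' UTR annotated for any coding transcript of each gene (GENCODE mouse release 21, GRCm38). It occurred in 8 of the 36 autophagy genes, or 22.2%, beside 13.8% of 20988 protein-coding genes, whose UTRs differ in length. The 8 are Gabarap, Atg3, Map1lc3b, Gabarapl2, Atg12, Becn1, Atg5 and Atg16l2. A match is a string of letters and not a shown binding site. The windows below are those of the reported targets and of the other genes with a match that had an unadjusted p under 0.05 in females, with the match in capitals.
Becn1: tattaaaccacaTGTTTACaatac
Atg5: atgagactttccTGTTTACagtca
Gabarapl2: tatacattttttTGTTTACatatg
Atg3: tgtcttccatttTGTTTACatcat
The Becn1 window lies at chr11:101288708-101288731 on the minus strand, with the match from base 94 of the 3' UTR. The Atg5 window lies at chr10:44363527-44363550 on the plus strand, from base 487. Those of Gabarapl2 (chr8:111953391-111953414) and Atg3 (chr16:45188475-45188498) are also on the plus strand. All 4 matches are followed by an A.

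Library depth ran from 8763033 to 16741694 counts per lung. All 12 lung tissue markers were detected in every lung, with a summed level of 8710 to 22909 CPM. Genes for olfactory and vomeronasal receptors, taken as a measure of background reads, held 0.435% to 1.00% of the counts. This receptor share was 0.590% ± 0.179 (SD, n = 3) in female lungs of room air and 0.812% ± 0.0952 after hyperoxia, against 0.818% ± 0.137 and 0.772% ± 0.228 in the corresponding males. The 7 red cell markers had a lower summed level in every hyperoxia-exposed lung (1307 to 4816 CPM) than in every room air lung (5270 to 8175 CPM). Over all lungs 4 of the 7 passed the threshold, beside 0.0415% of all genes. Skeletal muscle markers stood at 2626 CPM in room air male 1 and between 174 and 273 CPM in the other 11 lungs. No marker of any list was at 0. In such bulk samples, fewer cells of a type and less RNA per cell cannot be told apart.

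The level of the autophagy genes per length was compared first. Expressed as counts per kilobase of exon, scaled to depth (RPKM), the mean of 12 lungs ran from 73.9 for Lamp1 to 3.67 for Atg4a, a 20.1-fold range. The length was that of all annotated exons of a gene, merged over its transcripts, so the order depends on the annotation. Without division by length, mean levels were 198 CPM for Lamp1 and 199 CPM for Lamp2, and 27.7 CPM for Becn1 and 18.5 CPM for Atg5. Lamp1, an abundant glycoprotein of the lysosomal membrane, was followed by Gabarap (46.6 RPKM), the cargo receptor gene Sqstm1 (35.8 RPKM), Map1lc3a (25.7 RPKM) and Lamp2 (20.9 RPKM). Each of the first 4 was above the next gene in all 12 lungs, and Lamp2 was above Gabarapl1 (16.6 RPKM) in 11. The order was less distinct further down: Ulk2 (14.8 RPKM) exceeded Nbr1 (14.6 RPKM) in only 4 lungs, and Ulk1, Atg3 and Map1lc3b, at 11.7, 11.6 and 11.5 RPKM, exceeded the next in 7, 5 and 12.

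The 5 Atg8 genes ran from 46.6 RPKM for Gabarap to 6.74 RPKM for Gabarapl2, and the genes of initiation, the Vps34 complexes, membrane supply and conjugation from 14.8 RPKM for Ulk2 to 3.92 RPKM for Becn1, so that these ranges overlapped. The Vps34 complex genes had mean levels of 7.77 RPKM for the kinase Pik3c3, 6.54 RPKM for Pik3r4, 5.64 RPKM for Uvrag, 4.45 RPKM for Atg14 and 3.92 RPKM for Becn1. By this measure Becn1 was the second lowest of the 36. Atg5, which forms a conjugate with Atg12, had 7.85 RPKM, and the proteases of the Atg4 family ranged from 5.76 RPKM for Atg4b to 3.67 RPKM for Atg4a. The receptor genes stood at 0.695 to 1.68 RPKM. Measured by that density over the merged exon length, background would make up 1.58% of the counts of Lamp1, 15.0% of those of Atg5, 30.4% of those of Becn1 and 32.2% of those of Atg4a. It would be more than 25% for 8 of the 36 genes. These shares depend on the annotated length too.

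**Figure D1:**
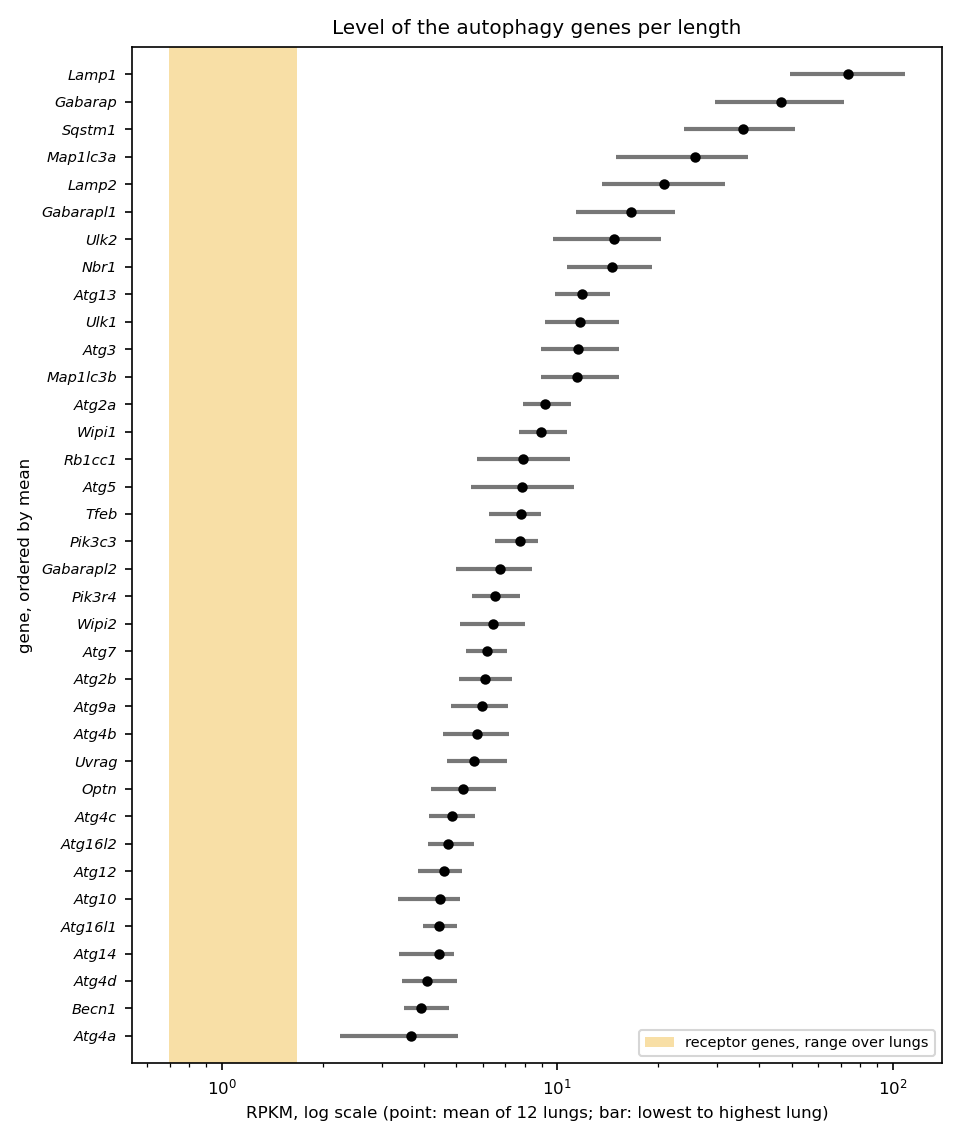
Level of the 36 autophagy genes in RPKM on a log axis, ordered by mean. Points are means of 12 lungs, grey bars run from the lowest to the highest lung, and the yellow band is the range of the receptor genes over lungs (0.695 to 1.68 RPKM). Lamp1 is highest at 73.9 RPKM and Atg4a lowest at 3.67 RPKM.

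Some of these counts may include reads of other genes. The strand setting of the counting is not stated, and 13 of the 36 genes overlap exons of an antisense gene. For Becn1 this overlap with Cntd1 covers 3104 of 7065 exon bases. Gabarapl2 shares stretches of at least 300 bases at 95% identity or more with Gm3724, Gm5829 and Gm6051, and Atg4a with Atg4a-ps and Syt6. Uvrag shares such stretches with 6 genes. The values of these genes are therefore uncertain to that extent.

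Lungs of the same group differed from each other across many of the genes at once, as the plot of the 36 genes in 12 lungs shows. The summed level of the 36 genes was 2479, 2722 and 1956 CPM in room air females 2, 5 and 6, and 2110, 1815 and 1787 CPM in hyperoxia-exposed females 2, 4 and 5. Among males, animals 1, 4 and 5 of room air had 1754, 2172 and 1913 CPM, and animals 1, 2 and 3 of hyperoxia had 2505, 1639 and 2149 CPM. Room air female 5 was thus highest and hyperoxia-exposed male 2 lowest, and the exposures overlapped in both sexes. The coefficient of variation within groups ran from 7.05% for Atg16l1 to 23.6% for Lamp1, with a median of 12.7%.

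**Figure D2:**
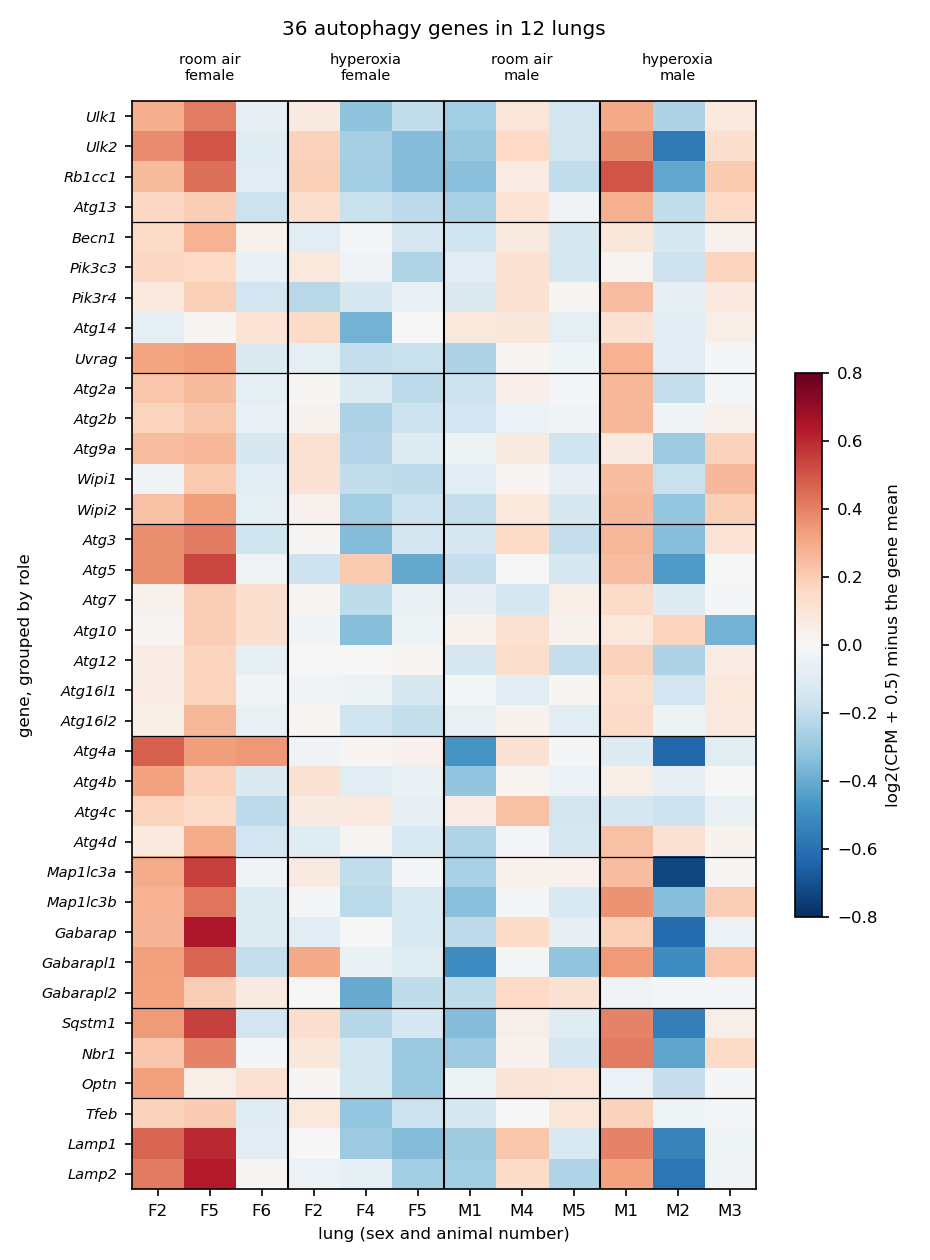
Level of each autophagy gene in each lung as log2(CPM + 0.5) minus the mean of that gene over 12 lungs, with genes grouped by role and lungs by exposure and sex. Columns differ as a whole: room air females 2 and 5 and hyperoxia-exposed male 1 are red for most genes and hyperoxia-exposed male 2 is blue, in the order of the summed levels of 2479, 2722, 2505 and 1639 CPM.

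The first comparison asks whether hyperoxia altered the autophagy genes over both sexes, 6 lungs against 6. Of the 36, 32 had lower and 4 higher values after hyperoxia, with a median log2 fold change of -0.08 and a range of -0.27 to 0.09. With 1 lung left out this median lay between -0.13 without room air female 6 and -0.023 without hyperoxia-exposed male 2. The median of all 45828 genes tested was 0.03, and that of the 19813 genes expressed at or above the mean RPKM of Atg4a was -0.05, with 60.6% of them lower. None of the 36 was called, beside 0.0415% of all genes (19 genes). An unadjusted p under 0.05 was reached by 3 of the 36 in the lower direction, beside 2.52% of all genes and 4.92% of those 19813, and by 0 in the higher direction, beside 2.67% and 1.69%. The adjusted p was at least 0.927 for every one of them. The 95% intervals of 34 of the 36 genes lay within a 1.5-fold change in either direction, and those of Lamp1 and Lamp2 reached to -0.64 and -0.59.

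Becn1 encodes the scaffold of the Vps34 complexes. Its level was 30.7, 33.6 and 28.3 CPM in room air females and 25.8, 27.2 and 25.01 CPM in hyperoxia-exposed females. In males it was 24.7, 29.0 and 25.1 CPM in room air and 29.3, 25.1 and 28.2 CPM after hyperoxia. The female groups did not overlap, the male groups did, and the room air females held the highest value. The log2 fold change was -0.09 ± 0.10 (SE) over all lungs, with an unadjusted p of 0.384 and an adjusted p of 0.934 by edgeR. It lay between -0.12 without room air female 6 and -0.046 without room air male 4.

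Atg5 is the acceptor of Atg12 in the conjugate that directs LC3 to the membrane. It stood at 23.6, 26.4 and 17.8 CPM in room air females and at 16.1, 21.0 and 13.5 CPM in hyperoxia-exposed females. The male lungs had 15.9, 18.2 and 16.5 CPM in room air and 21.6, 13.1 and 18.2 CPM after hyperoxia. Both sexes overlapped between exposures. Over all lungs the log2 fold change was -0.18 ± 0.13 (adjusted p = 0.927), and it was -0.27 without hyperoxia-exposed female 4 and -0.093 without hyperoxia-exposed male 2.

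The smallest unadjusted p over all lungs belonged to Optn, the gene of optineurin, a receptor for ubiquitin-tagged bacteria and mitochondria. Optn stood at 24.6, 20.3 and 21.3 CPM in room air females and 19.7, 17.7 and 15.8 CPM in hyperoxia-exposed females. The corresponding male values were 18.9, 21.0 and 20.9 CPM and 18.9, 17.1 and 19.4 CPM. Every hyperoxia-exposed female lay below every room air female, and the males overlapped. The log2 fold change was -0.22 ± 0.10 over all lungs, with an unadjusted p of 0.0328 by edgeR and an adjusted p of 0.927.

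Gabarapl2 and Atg4a followed. Gabarapl2, an Atg8 protein that also acts in Golgi transport, had 19.6, 17.9 and 16.4 CPM in room air females and 15.6, 11.6 and 13.4 CPM after hyperoxia. Its male values were 13.4, 17.4 and 16.9 CPM in room air and 15.2, 15.5 and 15.4 CPM after hyperoxia. The exposures were separate in females and not in males, and the log2 fold change over all lungs was -0.23 ± 0.11 (adjusted p = 0.927).

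Atg4a, an X-linked protease that trims and releases Atg8 proteins, had 13.5, 12.2 and 12.2 CPM in room air females and 9.36, 9.66 and 9.80 CPM in hyperoxia-exposed females. In males it had 6.72, 10.4 and 9.48 CPM in room air and 8.86, 5.99 and 8.93 CPM after hyperoxia. The 3 room air female lungs were the highest of the 12. The log2 fold change over all lungs was -0.27 ± 0.13 (adjusted p = 0.927).

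Gabarap and Lamp1 were next in the order of p. Gabarap had a log2 fold change of -0.23 ± 0.15, with room air females between 77.9 and 132 CPM and hyperoxia-exposed females between 77.3 and 84.2 CPM. Lamp1 had one of -0.26 ± 0.18. Its level was 265, 292 and 181 CPM in room air females and 192, 157 and 151 CPM in hyperoxia-exposed females, so that room air female 6 lay within the hyperoxia-exposed range. In males it was 158, 224 and 177 CPM in room air and 254, 133 and 188 CPM after hyperoxia, which overlapped. With 1 lung left out, Gabarap lay between -0.32 without hyperoxia-exposed male 1 and -0.12 without room air female 5, and Lamp1 between -0.39 without hyperoxia-exposed male 1 and -0.16 without hyperoxia-exposed male 2.

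**Figure D3:**
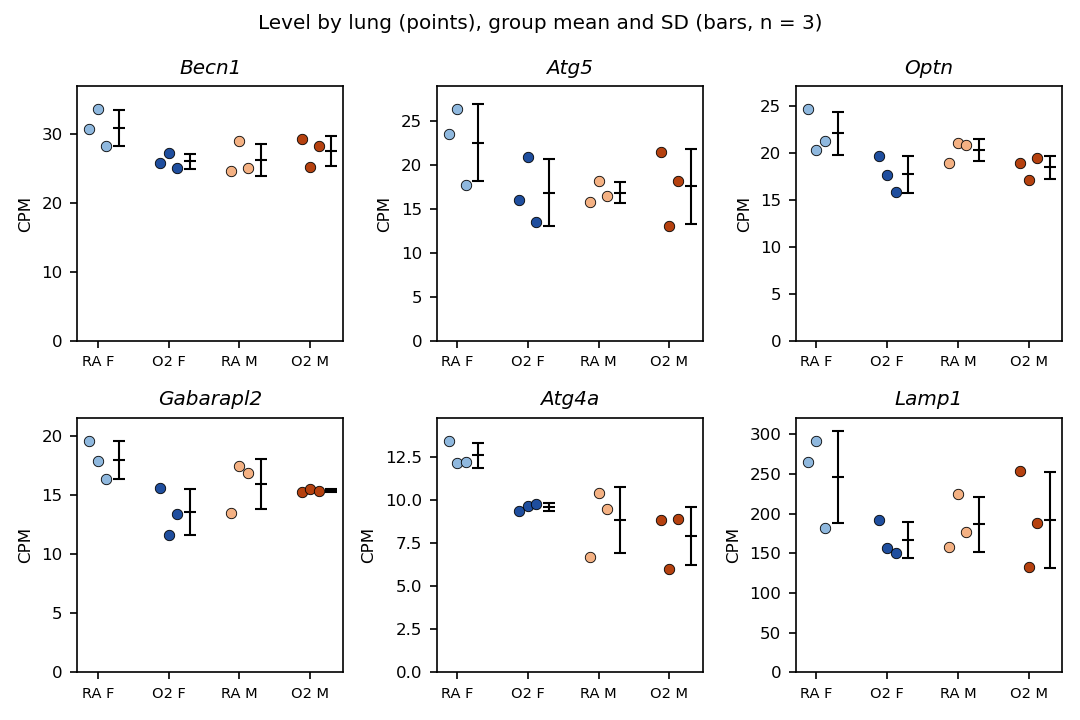
Level in CPM of 6 autophagy genes in the 3 lungs of each group (points), with group mean and SD (bars). RA is room air, O2 hyperoxia, F female and M male. In Becn1, Optn, Gabarapl2 and Atg4a the female exposures do not overlap; in Atg5 and Lamp1 they do, and the male exposures overlap in all 6.

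The sexes were then taken separately. In females, 36 of 36 genes had lower values after hyperoxia, from -0.56 for Lamp1 to -0.03 for Atg4c, with a median of -0.25. Over all genes tested the median was 0.11, and over genes at or above the mean RPKM of Atg4a it was -0.13, with 63.5% lower. None of the 36 was called, beside 0.00218% of all genes (1 gene). The number with an unadjusted p under 0.05 was 6 lower and 0 higher, beside 5.28% and 7.32% of all genes and 11.4% and 2.66% of those at or above the mean RPKM of Atg4a. For 8 genes, namely Becn1, Atg7, Atg10, Atg16l1, Atg4a, Gabarapl2, Optn and Lamp2, every hyperoxia-exposed lung was below every room air lung, beside 6.42% of all genes and 12.5% of those at or above that level, and for 0 it was above, beside 10.8% and 5.32%.

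Marker lists of cell types were set beside these counts. All 12 lung tissue markers were lower in females after hyperoxia, with a median of -0.50, and 9 of 12 were higher in males, with a median of 0.11. Of the 8 cardiac muscle markers, 7 were lower in females, with a median of -0.66. For 7 every hyperoxia-exposed female lay below every room air female, beside 6.42% of all genes and 12.5% of those at or above the mean RPKM of Atg4a. Their summed level was 240 to 269 CPM in room air females and 127 to 159 CPM in hyperoxia-exposed females, and 123 to 282 CPM and 127 to 133 CPM in the corresponding males, where 7 were again lower (median -0.28). The 7 neutrophil markers were all lower in females, with a median of -0.20, and all higher in males, with a median of 0.07. In females 2 of them had an unadjusted p under 0.05, beside 5.28% of all genes and 11.4% of those at or above that level in the lower direction. Of the 10 macrophage markers, 8 were lower in females (median -0.06) and 6 higher in males (median 0.03). Other lists went otherwise, with 5 of 9 lymphocyte markers and 9 of 12 skeletal muscle markers higher in females, and 7 of 9 and 12 of 12 lower in males. Room air male 1 had a skeletal muscle sum of 2626 CPM, beside 225 and 248 CPM in the other room air males. It also held the highest cardiac muscle sum of the males, at 282 CPM. None of these markers was called in either sex, and their part in the values of the autophagy genes was not tested.

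By role, the female median was -0.36 for the 4 ULK1 complex genes, -0.18 for the 5 Vps34 complex genes and -0.24 for the 5 genes of membrane supply and PI3P effectors. It was -0.20 for the 7 conjugation genes, -0.15 for the 4 proteases, -0.34 for the 5 Atg8 genes, -0.32 for the 3 cargo receptor genes and -0.51 for Tfeb, Lamp1 and Lamp2.

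Among single genes in females, Gabarapl2 had a log2 fold change of -0.40 ± 0.15, with an unadjusted p of 0.0120 by edgeR and an adjusted p of 0.354. Atg5 had -0.43 ± 0.18 (adjusted p = 0.366) and Optn -0.32 ± 0.14 (adjusted p = 0.378). The other genes with an unadjusted p under 0.05 were Atg3, the E2-like enzyme of the LC3 reaction (-0.39), Lamp1 (-0.56) and Atg4a (-0.39). Becn1 had -0.25 ± 0.14, with an adjusted p of 0.429. The 95% intervals of 16 of the 36 genes excluded a 1.5-fold change in both directions, so that for the remaining genes a change of that size was within the error.

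In males, 28 of the 36 genes had higher and 8 lower values after hyperoxia, with a median of 0.08 and a range of -0.18 to 0.34. This median rested on single lungs, at -0.0032 without hyperoxia-exposed male 1 and 0.20 without hyperoxia-exposed male 2. The median was -0.01 over all genes tested and 0.03 over those at or above the mean RPKM of Atg4a. None was called, beside 0% of all genes. An unadjusted p under 0.05 was reached by 0 of the 36 in either direction, beside 0.899% higher and 1.8% lower among all genes. Only Atg4d had groups that did not overlap, and 1 of 36 is close to the 2.73% of all genes, and 3.05% of those at or above that level, with separate groups in the higher direction.

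Atg4d, a further Atg8 protease, had 24.99, 29.4 and 26.98 CPM in room air males and 35.0, 32.1 and 30.3 CPM after hyperoxia, a log2 fold change of 0.26 ± 0.15. Gabarapl1 had 22.9, 32.3 and 26.1 CPM in room air males against 41.4, 22.97 and 37.95 CPM, a log2 fold change of 0.34 ± 0.20. Rb1cc1, which encodes the scaffold FIP200 of the ULK1 complex, had 89.9, 119 and 98.9 CPM against 161, 85.0 and 132 CPM, or 0.30 ± 0.24. In the last 2 genes hyperoxia-exposed male 2 lay near or below the lowest control and the other hyperoxia-exposed males above the highest. Without hyperoxia-exposed male 1 the value of Gabarapl1 was 0.18 and that of Rb1cc1 0.085, and without hyperoxia-exposed male 2 they were 0.56 and 0.52. The adjusted p was 1.00 for all 3 genes, and Becn1 and Atg5 each had a log2 fold change of 0.07 (adjusted p = 1.00). With 1 lung left out that of Becn1 lay between 0.031 and 0.16. That of Atg5 turned to -0.093 without hyperoxia-exposed male 1 and was 0.25 without hyperoxia-exposed male 2, and it was -0.029 with the receptor share in the model.

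**Figure D4:**
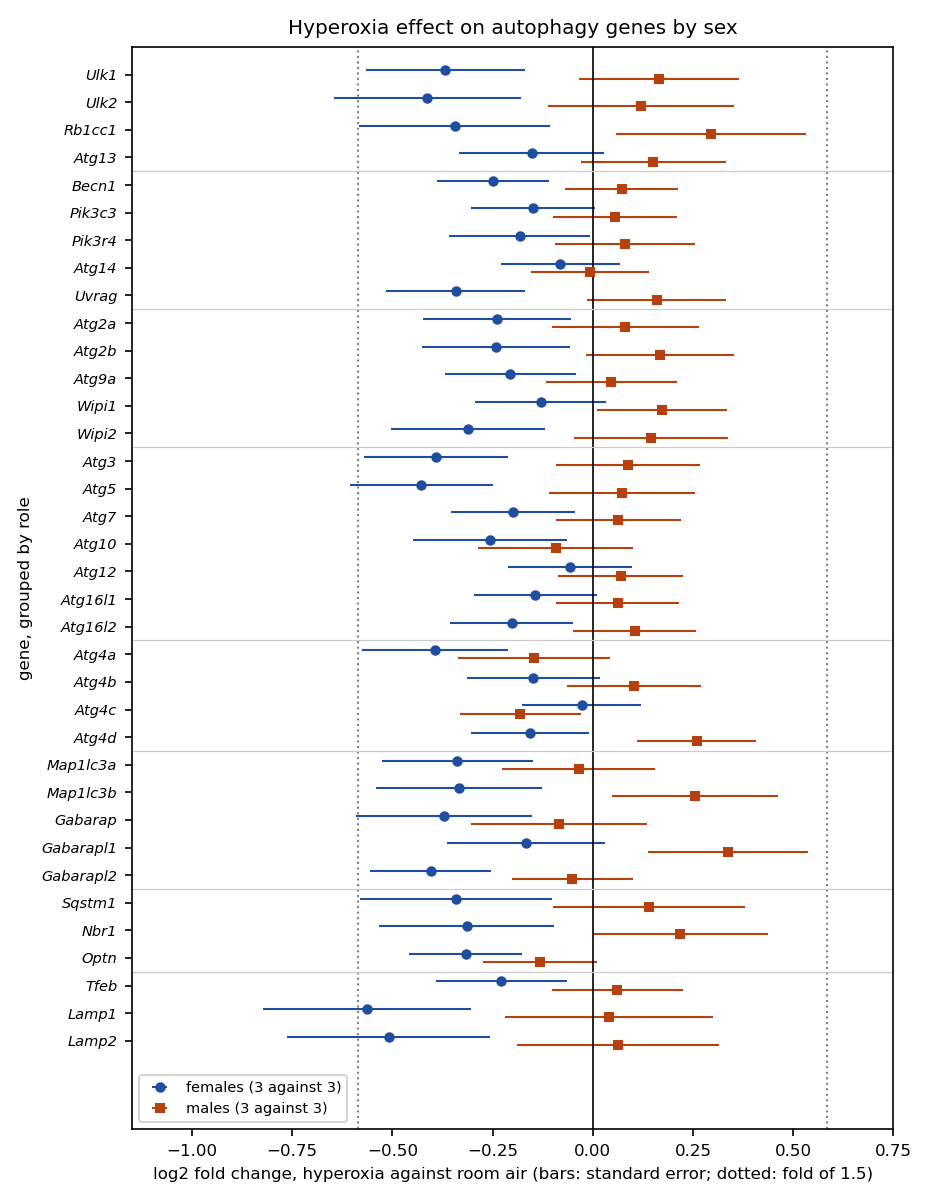
Log2 fold change of hyperoxia against room air for the 36 autophagy genes in females (circles) and males (squares), 3 lungs against 3, with standard errors. Dotted lines mark a 1.5-fold change and genes are grouped by role. All 36 circles lie below 0 and 28 squares above it, and no point lies beyond a dotted line.

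The difference between the sexes was tested as an interaction, female minus male effect. It was negative for 35 of 36 genes, with a median of -0.31. The median of all genes tested was 0.12 and that of genes at or above the mean RPKM of Atg4a was -0.17, with 65.4% of the latter negative. None was called, beside 0% of all genes, and 0 of 36 had an unadjusted p under 0.05 in the lower direction, beside 2.4% of all genes and 4.95% of those at or above that level. Uvrag, which takes the place of Atg14 in the Vps34 complex of endosomes, had an interaction of -0.50 ± 0.25, the smallest p of the 36, with an adjusted p of 0.578 by edgeR. Its levels were 62.8, 63.9 and 46.5 CPM in room air females against 48.0, 44.1 and 44.6 CPM after hyperoxia, and 42.4, 50.7 and 49.2 CPM against 61.3, 47.5 and 50.1 CPM in males, so that the exposures overlapped in both sexes.

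Map1lc3b, the LC3 form most used as a marker of autophagosomes, had an interaction of -0.59 ± 0.29 (adjusted p = 0.578). It stood at 103, 115 and 78.9 CPM in room air females and 84.5, 73.2 and 78.1 CPM in hyperoxia-exposed females. The male lungs had 67.4, 84.3 and 78.0 CPM in room air and 109, 67.2 and 97.6 CPM after hyperoxia. Groups overlapped in both sexes. With the receptor share in the model the interaction of Map1lc3b was -0.14 and that of Uvrag -0.19.

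Females were also compared with males over both exposures. Values were higher in females for 27 of the 36 genes, with a median of 0.05, beside a median of -0.03 over all genes tested and of 0.03 over those at or above the mean RPKM of Atg4a, of which 57.5% were higher. The median of the 36 was -0.0041 without hyperoxia-exposed male 2 and -0.087 with the replicate number as a block. None of the 36 was called, beside 1.22% of all genes. One gene, Atg4a, had an unadjusted p under 0.05 in the higher direction, beside 4.05% of all genes and 3.14% of those at or above that level, with a log2 difference of 0.39 ± 0.13 (adjusted p = 0.253). Lamp2, the other X-linked gene of the 36, had a difference of 0.20 ± 0.18. Gabarapl1 and Map1lc3a had differences of 0.24 ± 0.14 and 0.21 ± 0.13, with adjusted p of 0.869 and 0.912 in edgeR, and with the block the difference of Gabarapl1 was -0.0020. Without hyperoxia-exposed male 2 the differences of Gabarapl1 and Map1lc3a were 0.14 and 0.092.

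The levels of the 36 genes moved with the receptor share from lung to lung. Ordered by rising receptor share, the summed level of the autophagy genes went from 2722 CPM in room air female 5, at 0.435%, to 1639 CPM in hyperoxia-exposed male 2, at 1.00%. Over the 12 lungs the 2 orders were mirror images of each other except for a single exchange of neighbours, hyperoxia-exposed female 2 and hyperoxia-exposed male 3. Both quantities come from the same library and are shares of the same total.

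With the log2 receptor share as a term in the model, the female median was -0.012, with 19 genes lower and 17 higher, beside 48.8% lower among genes at or above the mean RPKM of Atg4a. Under the same model it was 0.0070 over all lungs, 0.021 in males and -0.041 for the interaction. None of the 36 was called in this model, beside 0.0371% of all genes over all lungs, 0.0458% in females, 0.0131% in males and 0% for the interaction. Becn1 then had a female log2 fold change of -0.10 and Atg5 one of -0.078. Gabarapl2 moved from -0.40 to -0.30, Optn from -0.32 to -0.25, and Gabarapl1 from -0.17 to 0.30. The other genes with an unadjusted p under 0.05 in the main model by edgeR then stood at -0.063 for Lamp1, -0.036 for Atg3 and -0.22 for Atg4a in females. The smallest adjusted p of any of the 36 in females was 0.733 in this model.

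**Figure D5:**
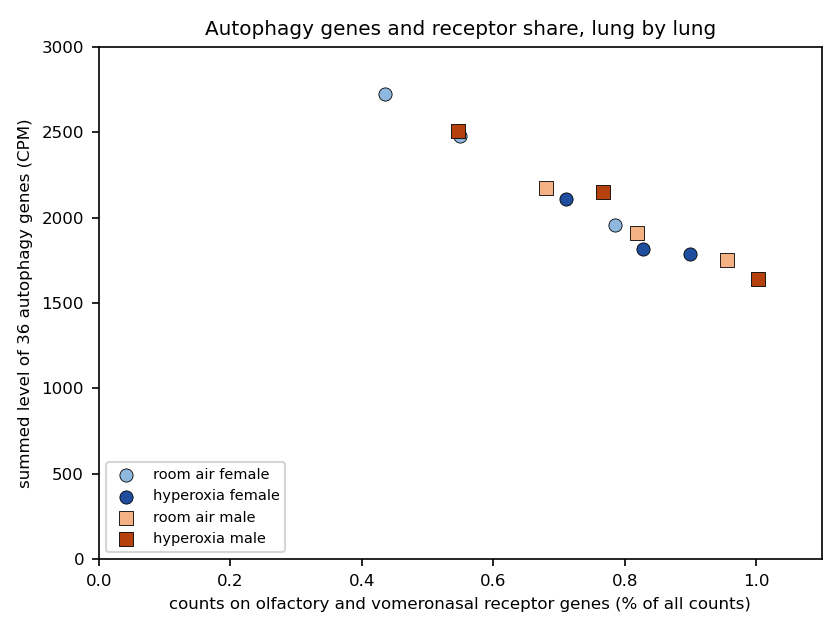
Summed level of the 36 autophagy genes in CPM against the share of counts on olfactory and vomeronasal receptor genes in percent, 1 point per lung (circles female, squares male, dark shades hyperoxia). The points run from 2722 CPM at 0.435% down to 1639 CPM at 1.00%, with lungs of all 4 groups along the same course.

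The methods of the study name RUVr, which estimates unwanted factors from the residuals of a first fit. With 1 such factor the female median stayed at -0.25, and 18 of the 36 genes had an adjusted p under 0.05 by edgeR, all lower, beside 16.7% of all genes. None of the 18 exceeded a 1.5-fold change. Over all lungs Gabarap, Lamp1 and Lamp2 had an adjusted p under 0.05, beside 4.51% of all genes. For the interaction 14 genes did, beside 11.7%, and Rb1cc1 alone was called, at -0.61 with an adjusted p of 8.3e-05, beside 4.59% of all genes. The shares of all genes in this model cover both directions and genes of every level. They were not computed for genes at or above the mean RPKM of Atg4a. Whether the counts among the 36 exceed those of comparably expressed genes was therefore not tested. The factor was estimated from the same 12 lungs as the test.

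The 8 genes with a TGTTTAC match were set beside the 28 without. The median log2 fold change of the 8 was -0.12 over all lungs, -0.35 in females and 0.07 in males, and that of the 28 was -0.08, -0.24 and 0.08. All 8 and all 28 were lower in females. These medians are given as a description.

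A last look was taken at the promoters, since TFEB, the transcription factor on the list, binds E-boxes of lysosomal and autophagy genes. Promoters of 250 bases before to 50 bases after the start were matched for 30 of the 36 genes (RefSeq). The palindrome CACGTG was found in 5 of the 30, namely Atg3, Atg5, Atg7, Atg14 and Lamp1, or 16.7%, beside 8.09% of 27025 promoters. The longer TCACGTGA, which contains it, was found in Atg3 alone, beside 1.12% of promoters. Tfeb itself had 50.04, 50.8 and 41.1 CPM in room air females and 46.8, 35.4 and 39.0 CPM in hyperoxia-exposed females, and its groups overlapped.

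Lists of related genes were counted in the same way, over all lungs, beside 60.6% lower and 4.92% with an unadjusted p under 0.05 in the lower direction among genes at or above the mean RPKM of Atg4a, and 2.52% among all genes. Of 31 other autophagy genes, 28 were lower over all lungs, with a median of -0.10, 0 called and 3 with an unadjusted p under 0.05. Bnip3l, a mitophagy receptor that clears mitochondria from maturing red cells, had -0.44 ± 0.15 (adjusted p = 0.868), and Bcl2l1, which binds Becn1, had -0.36 ± 0.14 (adjusted p = 0.927). Bnip3l stood at 104 to 133 CPM in room air females against 73.0 to 79.4 CPM after hyperoxia, without overlap. The red cell markers also had a lower level after hyperoxia in both sexes, with a median of -1.38 in females and -1.01 in males and 7 of 7 lower in each, and their part in this value was not tested.

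Of 24 genes of mTORC1 and AMPK control, the nutrient and energy signals that gate the ULK1 complex, 20 were lower, with a median of -0.08, 0 called and 0 with an unadjusted p under 0.05. The smallest p belonged to the GTPase genes Rraga (-0.28 ± 0.16) and Rheb (-0.20 ± 0.12). Of 34 lysosomal genes of the TFEB network, 30 were lower, with a median of -0.12, 0 called and 2 with an unadjusted p under 0.05. The smallest p belonged to Ctss, which encodes the lysosomal protease cathepsin S of antigen-presenting cells (-0.45 ± 0.13, adjusted p = 0.595). The 10 macrophage markers had a summed level of 1229 to 2289 CPM in room air females and 1140 to 1474 CPM in hyperoxia-exposed females, and of 1087 to 1554 CPM and 966 to 1780 CPM in the corresponding males. Over all lungs 6 of the 10 were lower, with a median of -0.04, and their part in the value of Ctss was not tested. In females these 3 lists had medians of -0.26, -0.19 and -0.27, and in males 0.07, 0.06 and 0.08.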

How the data were processed

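Reads were trimmed by the authors (Trim Galore) and aligned to mm10 (STAR), and the deposited values are unnormalized read counts per gene (featureCounts). The strand setting is not given in the sources used here. For the library kit the paper names QIAseq Stranded and the labels NEBNext Ultra II Directional. Whole-lung RNA of 12 mice was grouped by the sex and exposure in the labels. Each library is 1 animal by its number in the labels, and the p-values measure the spread between these animals. No pair of lungs of a group agreed within sampling noise (chi-square per gene of at least 2.47).

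The tools were edgeR 4.0.16 and DESeq2 1.42.0 in R 4.3.3 for the tests, and pandas 2.3.3 and matplotlib 3.10.9 in Python 3.11.15 for tables and plots. filterByExpr left 45828 genes. On these, edgeR (robust quasi-likelihood, upper-quartile factors) estimated 1 mean per group, with Benjamini-Hochberg adjustment over all of them. CPM used the normalized library sizes. Near-identical genes were found with BLAST 2.17.0. Exon lengths, merged over the transcripts of a gene, were read from GENCODE (mouse release 21) for the 55227 genes of the table that it lists. How many RUVr factors the authors took and which batches they gave ComBat-seq are not stated, so neither is in the main model. RUVr with 1 factor was coded here from deviance residuals.

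The genes, lists and tests were chosen with earlier results of these data known. Named are Becn1, Atg5 and the genes with the smallest unadjusted p: 5 over all lungs, 3 in females, 3 in males, 2 in the interaction and 3 between the sexes, and 2 of each related list over all lungs, of which 1 lysosomal gene is not reported here. Others named with values (Tfeb, the ordering of levels, genes with separate groups) were added after their values were seen. Depth gives a floor of 3 counts, which covers counting error only, and each autophagy gene had at least 55 counts in every lung. Alternatives were TMM normalization, RUVr, DESeq2, omitting the filter, requiring 10 counts per library, the receptor share as a covariate, the libraries compared alone, the adjusted p alone, the replicate number as a block and each lung left out. Comparison columns of the authors were not used.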

Additional observations from a re-analysis of the deposited data

How the results depend on the processing

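None of the 36 genes was called in any comparison under any alternative, leave-one-out fits included, except Rb1cc1 in the interaction (1 gene) with 1 RUVr factor. The median of the 36 kept its sign in females and in the interaction throughout, and over all lungs it was 0.0070 with the receptor share and negative otherwise. In females it moved to -0.012 once the receptor share was in the model, and the interaction median to -0.041 with the same term and to -0.44 with DESeq2, under which the interaction median of all genes was 0.01 in place of 0.12. Relative to all genes, the interaction median of the 36 was -0.43 in the main model and -0.45 with DESeq2. The female median ranged from -0.34 to -0.18 when 1 lung was left out. The male median ranged from -0.0032 without hyperoxia-exposed male 1 to 0.20 without hyperoxia-exposed male 2, and the interaction median from -0.44 without the latter to -0.25 without the former. Of 436 alternative values of the named genes 433 kept their direction, and the exceptions were Atg5 in males, at -0.029 with the receptor share and between -0.093 without hyperoxia-exposed male 1 and 0.25 without hyperoxia-exposed male 2, and Gabarapl1 between the sexes, at -0.0020 with the replicate block. Counts over all genes moved far more. In females, 1 gene was called in the main model, 0 with TMM, 1898 with RUVr, 8 without filter, 89 with DESeq2, 21 with the receptor share, 80 with the libraries compared alone and 0 to 206 with 1 lung left out, the last without room air female 6. Over all lungs, 19 became 92 with RUVr, 40 with DESeq2 and 3 to 37 with 1 lung left out. In males, 0 became 16 with RUVr, 6 with the receptor share, 2 with the libraries compared alone and 0 to 1 with 1 lung left out, and in the interaction 0 became 2102 with RUVr. Between the sexes, 559 became 1006 with RUVr, 1004 without filter, 266 with 10 counts in every library and 976 with the receptor share. The causes were not tested.

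Animal numbers shared between exposures did not pair the lungs, since the deviations of same-numbered lungs correlated at 0.11, -0.24 and -0.40 for female 2, female 5 and male 1. With the replicate number as a block, 0 genes were called in females and 170 between the sexes, where the median of the 36 became -0.087, and no other call changed. The comparison between the sexes then rests on the lungs without a shared number.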
